A study of Mus musculus with 4 samples.

Results

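The chemokine system of the mouse liver was followed through 46 genes, 25 chemokine ligands and 21 chemokine receptors, of the 32285 genes counted. The members were taken by gene symbol, from a list drawn up with earlier results of these data known. For each gene the level was summed over the cells of a type in each library and given as CPM. This is the gene's share of the unique molecular identifiers (UMIs, 1 per captured RNA molecule) of that cell type in that library, on a scale where all genes sum to 1000000.

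The libraries came from the livers of male C57BL/6J mice that arrived at 5 weeks of age and acclimated for 1 week. The normal chow diet (NCD) group had 1 library and received no high-fat feed. The high-fat diet (HFD) group had 2 libraries, from mice on feed with 60% fat for 14 weeks and then an 8-week intervention period, during which NCD and HFD mice were given distilled water by mouth. The JQF group had 1 library, from a mouse on the same high-fat feed that was given Jiangtang Qingre Formula, a mixture of herbs, by mouth over those 8 weeks. Each library was 1 mouse, so NCD and JQF had no replicate, and every p-value below rests on the spread between the 2 HFD libraries, shared over all genes of a cell type. HFD values are given in the order replicate 1, replicate 2.

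Chemokines are small secreted proteins that direct the movement of leukocytes along concentration gradients. They are named by the spacing of their first cysteines (CC, CXC, XC and CX3C) and act on receptors coupled to inhibitory G proteins, while the atypical receptors bind chemokines without that signal and clear or store them. In the fatty liver, Ccl2 and its receptor Ccr2 are known for the recruitment of monocytes, Cxcl1 and Cxcl2 with Cxcr2 for neutrophils, Cxcl9 and Cxcl10 with Cxcr3 for effector T cells, and Cxcl16 with Cxcr6 for resident T and natural killer T cells.

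Many of these genes lie in tandem clusters. On the GRCm38 build, 12 members were on chromosome 11 (10 ligands with Ccr7 and Ccr10), 12 on chromosome 9 (all receptors), 8 on chromosome 5 (all ligands) and 6 on chromosome 1 (Xcl1 and 5 receptors). Promoters are shown for Cxcl1, Cxcl2 and Cxcl10, all on chromosome 5, because their levels differed between groups in several cell types below. These genes are textbook targets of NF-kappaB and, for Cxcl10, of interferon signalling. The sequences are from RefSeq (GRCm38.p6), 5′ to 3′ on the gene's strand, ending just before the first annotated transcript start. Capitals mark matches to the kappaB motif GGGNNNTTCC on either strand and, at the start of the Cxcl10 sequence, to the interferon-response motif GAAANNGAAA.
Cxcl1, chr5:90890995-90891240, plus strand: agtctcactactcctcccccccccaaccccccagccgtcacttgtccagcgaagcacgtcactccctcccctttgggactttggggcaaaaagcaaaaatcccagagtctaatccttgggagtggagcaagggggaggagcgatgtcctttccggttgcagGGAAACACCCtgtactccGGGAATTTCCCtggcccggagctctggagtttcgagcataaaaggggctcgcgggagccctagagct
Cxcl2, chr5:90903649-90903870, plus strand: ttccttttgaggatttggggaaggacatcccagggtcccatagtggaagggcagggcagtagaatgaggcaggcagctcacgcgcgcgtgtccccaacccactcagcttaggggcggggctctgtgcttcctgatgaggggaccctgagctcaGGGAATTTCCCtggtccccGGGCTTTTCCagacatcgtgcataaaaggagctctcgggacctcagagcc
Cxcl10, chr5:92348890-92349139, minus strand: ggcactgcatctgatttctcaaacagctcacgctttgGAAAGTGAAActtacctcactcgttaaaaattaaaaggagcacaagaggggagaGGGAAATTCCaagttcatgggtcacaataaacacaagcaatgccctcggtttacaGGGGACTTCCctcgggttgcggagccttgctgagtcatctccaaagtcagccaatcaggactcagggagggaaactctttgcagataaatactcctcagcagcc
In Cxcl1 and Cxcl2 the longest capital stretch holds overlapping matches on opposite strands. The kappaB letters stood in the 250 bases before the start of 6 of the 37 members with a promoter in the table (16.2%: Ccl9, Ccr3, Ccr6, Cxcl1, Cxcl2 and Cxcl10), against 4.65% of all 32851 promoters. The interferon-response letters stood in 2 members (5.41%: Cxcl10 and Cxcl14), against 2.98% of all promoters. A match describes the letters and is not a measured binding site. Ccl2, Ccl4, Ccl5, Ccl7, Ccl24, Cxcl16, Ccr7, Ccr10 and Cxcr5 had no entry.

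In all, 29025 cells passed the filters (NCD 5578, HFD 6107 and 9399, JQF 7941). The median UMIs per cell were 12769.5 in NCD and between 7424 and 8595 in the other libraries, and no pair of libraries shared more than 24 cell barcodes. Cells were typed by marker genes that excluded all members. Although the samples are labelled as immune cells, the markers also found endothelial cells, hepatocytes, epithelial cells and stellate cells, and 3435 endothelial cells stood in the NCD library against 99 and 1101 in the HFD libraries and 563 with JQF. Genes of the response to tissue dissociation were high in NCD in several types, and barcodes outside the called cells held chemokine RNA, so both are given below by cell type.

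UMIs were found for all 46 members, from 114 UMIs in 77 cells for Ppbp to 658415 UMIs in 13205 cells for Ccl5. A cell type is called highest for a gene below by its mean CPM over the libraries with at least 20 of its cells. That type also led within each of the 4 libraries for 22 members, in 3 for 9, in 2 for 7 and in 1 for 8. Levels of a few rare messages hung on single cells. Of 659 values of at least 10 CPM (a member in a cell type of a library), 123 (18.7%) drew 50% or more of their UMIs from 3 cells or had no more than 3 cells with a UMI, and 34 of these were among the 51 hepatocyte values. Such values are called carried by few cells below. For a call, the mark was set by the group with the higher level, with the 2 HFD libraries pooled. Values on the lower side, and some levels given without a test, are not marked. In NCD, for example, 3 cells held 79.5% of the Cxcl10 UMIs of natural killer cells and 84.5% of the Ccr2 UMIs of macrophages. The share was 89.7% for Cxcl2 in T cells and, in monocytes, 65.5% for Ccl2 and 67.9% for Cxcl10.

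**Figure D1:**
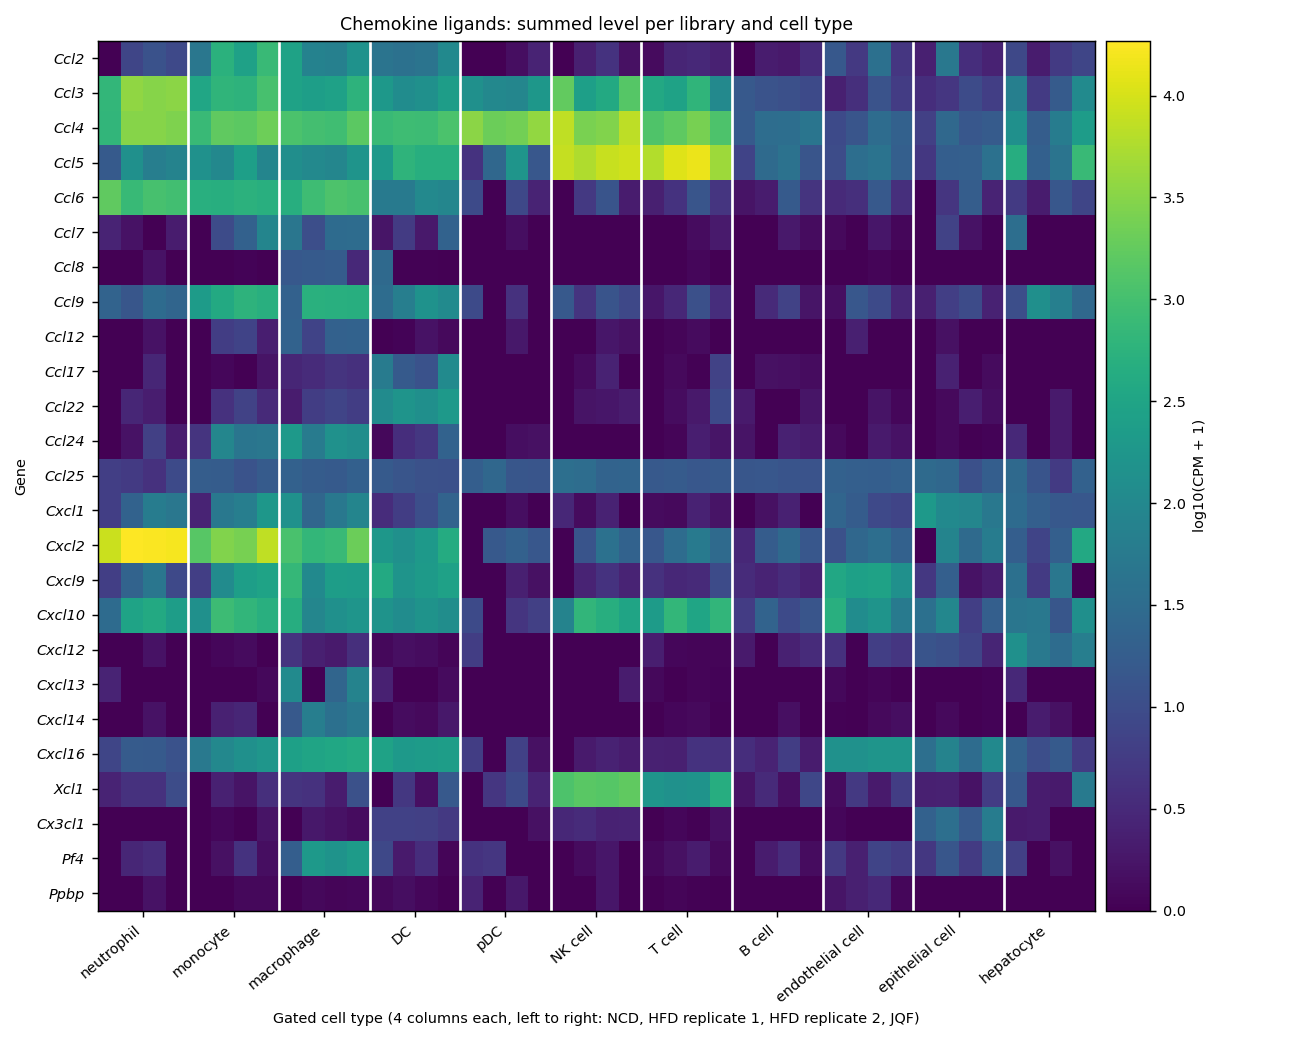
Levels of the 25 chemokine ligands (rows) in 11 marker-gated cell types, each with 4 columns for NCD, HFD replicate 1, HFD replicate 2 and JQF. Colour is log10(CPM + 1), and Cxcl2 in neutrophils and Ccl5 in T and NK cells are among the brightest blocks in every library, with neutrophil Cxcl2 at 8379 to 18582 CPM.

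Among the neutrophil-attracting ligands, Cxcl2 was highest in neutrophils themselves, with 8379 CPM in NCD, 18582 and 17559 CPM in HFD and 16062 CPM in JQF. Monocytes had 1443 CPM in NCD, 2931 and 2510.3 CPM in HFD and 7224 CPM in JQF, and macrophages had 1086 CPM in NCD, 668 and 781 CPM in HFD and 2078 CPM in JQF. Cxcl1 was spread over non-leukocytes and myeloid cells, and in epithelial cells it read 199.7 CPM in NCD, 105 and 89.5 CPM in HFD and 49.8 CPM in JQF. Ppbp, a platelet chemokine, was close to absent, and 53.5% of its few UMIs were in endothelial cells. Pf4, another platelet chemokine, was found instead in macrophages, which held 88.6% of its UMIs.

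Of Ccl3, Ccl4 and Ccl5, ligands of Ccr1 and its relatives, Ccl5 and Ccl4 were the most counted members. T cells held 85.0% of all Ccl5 UMIs, with 5968 CPM in NCD, 11624 and 13751 CPM in HFD and 4422 CPM in JQF, and natural killer (NK) cells had 7924 CPM in NCD, 5706 and 7990.3 CPM in HFD and 9229 CPM in JQF. Ccl4 was highest in NK cells, with 7121 CPM in NCD, 2576 and 2888 CPM in HFD and 7053 CPM in JQF, although neutrophils were higher in both HFD libraries, and second in plasmacytoid dendritic cells (pDC), with 3423 CPM in NCD, 2074 and 2299.8 CPM in HFD and 3709 CPM in JQF. Neutrophils had the highest Ccl3 level in HFD and JQF and NK cells in NCD, and their values are given with the diet comparison. Ccl6 and Ccl9 are CC ligands known from mouse myeloid cells. Macrophages held 65.0% of the Ccl6 UMIs, monocytes 13.5% and neutrophils 7.97%, and macrophages held 48.2% of the Ccl9 UMIs, monocytes 22.4% and dendritic cells 14.8%.

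The monocyte attractants Ccl2, Ccl7, Ccl8 and Ccl12 were myeloid and stromal. Ccl2 was highest in monocytes, with 49.2 CPM in NCD, 527 and 282 CPM in HFD and 777 CPM in JQF, and NCD lay below the other 3 libraries. In NCD macrophages were higher, at the level given below. Macrophages held 83.1% of the Ccl8 UMIs, 82.0% of the Ccl12 UMIs and 44.1% of the Ccl7 UMIs. In stellate cells Ccl2 read 482 and 1583 CPM in HFD, but HFD replicate 1 had a single stellate cell, and fewer than 20 were in HFD replicate 2, so those levels were not used for the ranking.

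The interferon-induced Cxcr3 ligands were broadly made. Cxcl10 was above 50 CPM in every library of T cells (223 CPM in NCD, 677 and 322 CPM in HFD and 643 CPM in JQF) and of monocytes (137 CPM in NCD, 834 and 652 CPM in HFD and 490.2 CPM in JQF). Cxcl9 was highest in macrophages, with 699 CPM in NCD, 104 and 234 CPM in HFD and 226 CPM in JQF. Its NCD and JQF values there were carried by few cells. Endothelial cells and monocytes were higher than macrophages in both HFD libraries. Dendritic cells had more Cxcl9 than macrophages in HFD replicate 1, and monocytes and dendritic cells did in JQF. Endothelial cells held 43.6% of its UMIs, 21794 of them in NCD, the library with most endothelial cells. Cxcl16, the ligand of Cxcr6, was found in macrophages (267 CPM in NCD, 308 and 353 CPM in HFD and 402 CPM in JQF), dendritic cells (DC; 285 CPM in NCD, 204 and 223 CPM in HFD and 241 CPM in JQF) and, at lower levels, endothelial cells (143 CPM in NCD, 141 and 169 CPM in HFD and 167 CPM in JQF).

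Several ligands had most of their UMIs in 1 cell type. DC held 87.7% of the Ccl22 and 77.3% of the Ccl17 UMIs, ligands made by mature DC, and macrophages held 90.8% of Cxcl14, 80.5% of Cxcl13 and 70.7% of Ccl24. Epithelial cells held 67.9% of the UMIs of Cx3cl1, the membrane-bound ligand of Cx3cr1. Stellate cells, only 98 cells in all, held 64.4% of Cxcl12, the ligand of Cxcr4, but 1267 of its 1313 stellate UMIs were in NCD, and hepatocytes had the highest Cxcl12 level in both HFD libraries and JQF among types with at least 20 cells. Xcl1, the ligand of Xcr1, had 61.0% of its UMIs in T cells and 30.1% in NK cells, and its level was highest in NK cells, with 1177 CPM in NCD, 1505 and 1388 CPM in HFD and 1714 CPM in JQF. Ccl25, the ligand of Ccr9, was spread over all types and low, at 34.7 CPM or less in each library of NK cells, its highest type.

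**Figure D2:**
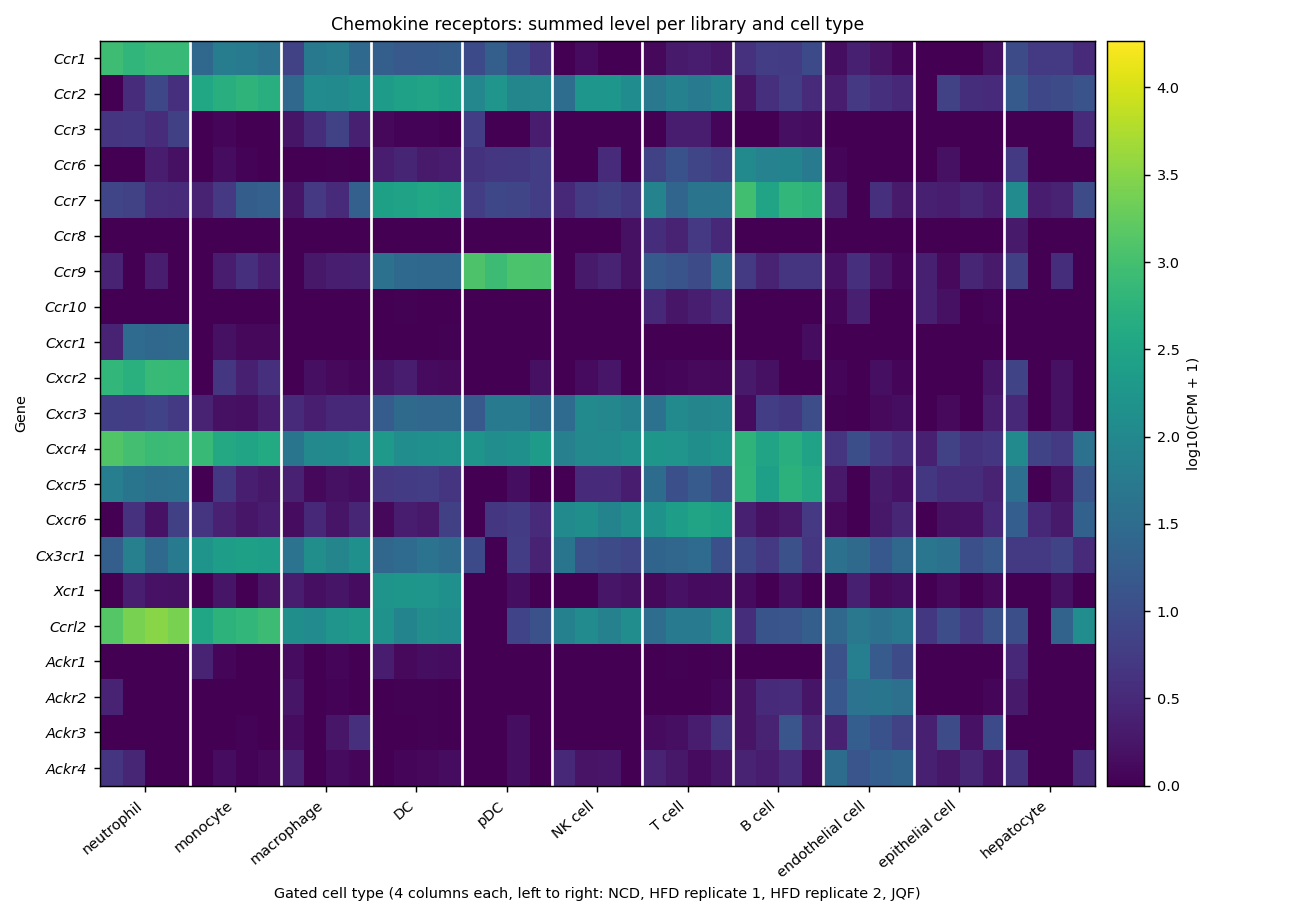
Levels of the 21 chemokine receptors (rows) in the same 11 cell types and 4 libraries, as log10(CPM + 1). Cxcr1 and Cxcr2 stand in neutrophils, Xcr1 in DC, Cxcr6 in T and NK cells, Cxcr5, Ccr6 and Ccr7 in B cells and Ccr9 in pDC.

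Most receptors followed 1 or 2 leukocyte types. Neutrophils held 94.4% of the UMIs of Cxcr2, the main receptor for Cxcl1 and Cxcl2, with 669.6 CPM in NCD, 513 and 762 CPM in HFD and 715 CPM in JQF. The related Cxcr1 was rare and 83.5% neutrophil. Ccr1 was also highest in neutrophils, with 862 CPM in NCD, 650.3 and 794 CPM in HFD and 762 CPM in JQF, and in these cells it was called in neither comparison. Ccrl2, an atypical receptor that holds chemerin at the cell surface, had its highest level in neutrophils too, with 1394 CPM in NCD, 2539 and 3232 CPM in HFD and 2574 CPM in JQF.

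Monocytes led for Ccr2 (351 CPM in NCD, 484 and 600.3 CPM in HFD and 478 CPM in JQF) and for Cx3cr1 (163 CPM in NCD, 235 and 267 CPM in HFD and 243 CPM in JQF). DC followed for Ccr2 with 217 CPM in NCD, 275 and 314 CPM in HFD and 254 CPM in JQF, and held 98.9% of Xcr1, the receptor of cross-presenting DC, at 162 CPM in NCD, 179.9 and 169.7 CPM in HFD and 139 CPM in JQF. The pDC level of Ccr9, a homing receptor of pDC and gut T cells, was 1201 CPM in NCD, 848 and 1168 CPM in HFD and 1099 CPM in JQF, all within a narrow range. In mature DC, the Ccr7 level was 2885 CPM in NCD, 2063 and 2719 CPM in HFD and 2353 CPM in JQF, with NCD drawn from 8 cells.

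T cells held 92.2% of Cxcr6, with 157 CPM in NCD, 246 and 307 CPM in HFD and 269 CPM in JQF, and 69.1% of Cxcr3. The rare Ccr8 was 90.1% in T cells, and Ccr10 was split between plasma cells (47.2%) and T cells (45.3%). B cells led for Cxcr5, the follicle homing receptor, with 613 CPM in NCD, 254 and 555 CPM in HFD and 374 CPM in JQF. They also led for Ccr7, with 965 CPM in NCD, 307 and 665 CPM in HFD and 582 CPM in JQF, and for Ccr6, with 111 CPM in NCD, 75.9 and 81.8 CPM in HFD and 54.6 CPM in JQF. For all 3 receptors HFD replicate 1 lay below NCD, HFD replicate 2 lay between them, and none was called. Cxcr4 was found in every leukocyte type, highest in neutrophils with 1273 CPM in NCD, 985 and 819 CPM in HFD and 852 CPM in JQF. Endothelial cells held most UMIs of the atypical receptors Ackr2 (93.7%), Ackr4 (90.7%) and Ackr1 (90.1%), shares pooled over libraries of which NCD had the most endothelial cells. By mean level the few stellate cells were higher for Ackr2 (39.8 against 34.3 CPM) and Ackr4 (44.3 against 21.0 CPM), and Ackr3 had 49.0% of its UMIs in the few stellate cells. Among types with at least 20 cells, endothelial cells led for Ackr2 and Ackr4 in NCD and both HFD libraries, and stellate cells only in JQF. The 9 endothelial markers summed to 7269 CPM in the NCD stellate gate, against 14520 CPM in NCD endothelial cells.

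Between HFD and NCD, 31 of the 46 members passed the test (edgeR quasi-likelihood, adjusted p under 0.05 over all genes of a type) in at least 1 of 7 testable cell types. The share of all genes called in at least 1 type was not computed. Of 194 member-type pairs that passed the filter on low counts, 51 were called (26.3%), 30 higher and 21 lower in HFD, against 17.6% of all gene-type pairs. With hepatocytes set aside, 39 of 174 pairs were called (22.4%), 29 higher and 10 lower. By type, 7.66% to 22.8% of all genes were called outside hepatocytes and 40.8% in hepatocytes. The fold changes below are log2, HFD over NCD, with the standard error (SE). Of the 51 calls, 8 were carried by few cells in the group with the higher level.

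**Figure D3:**
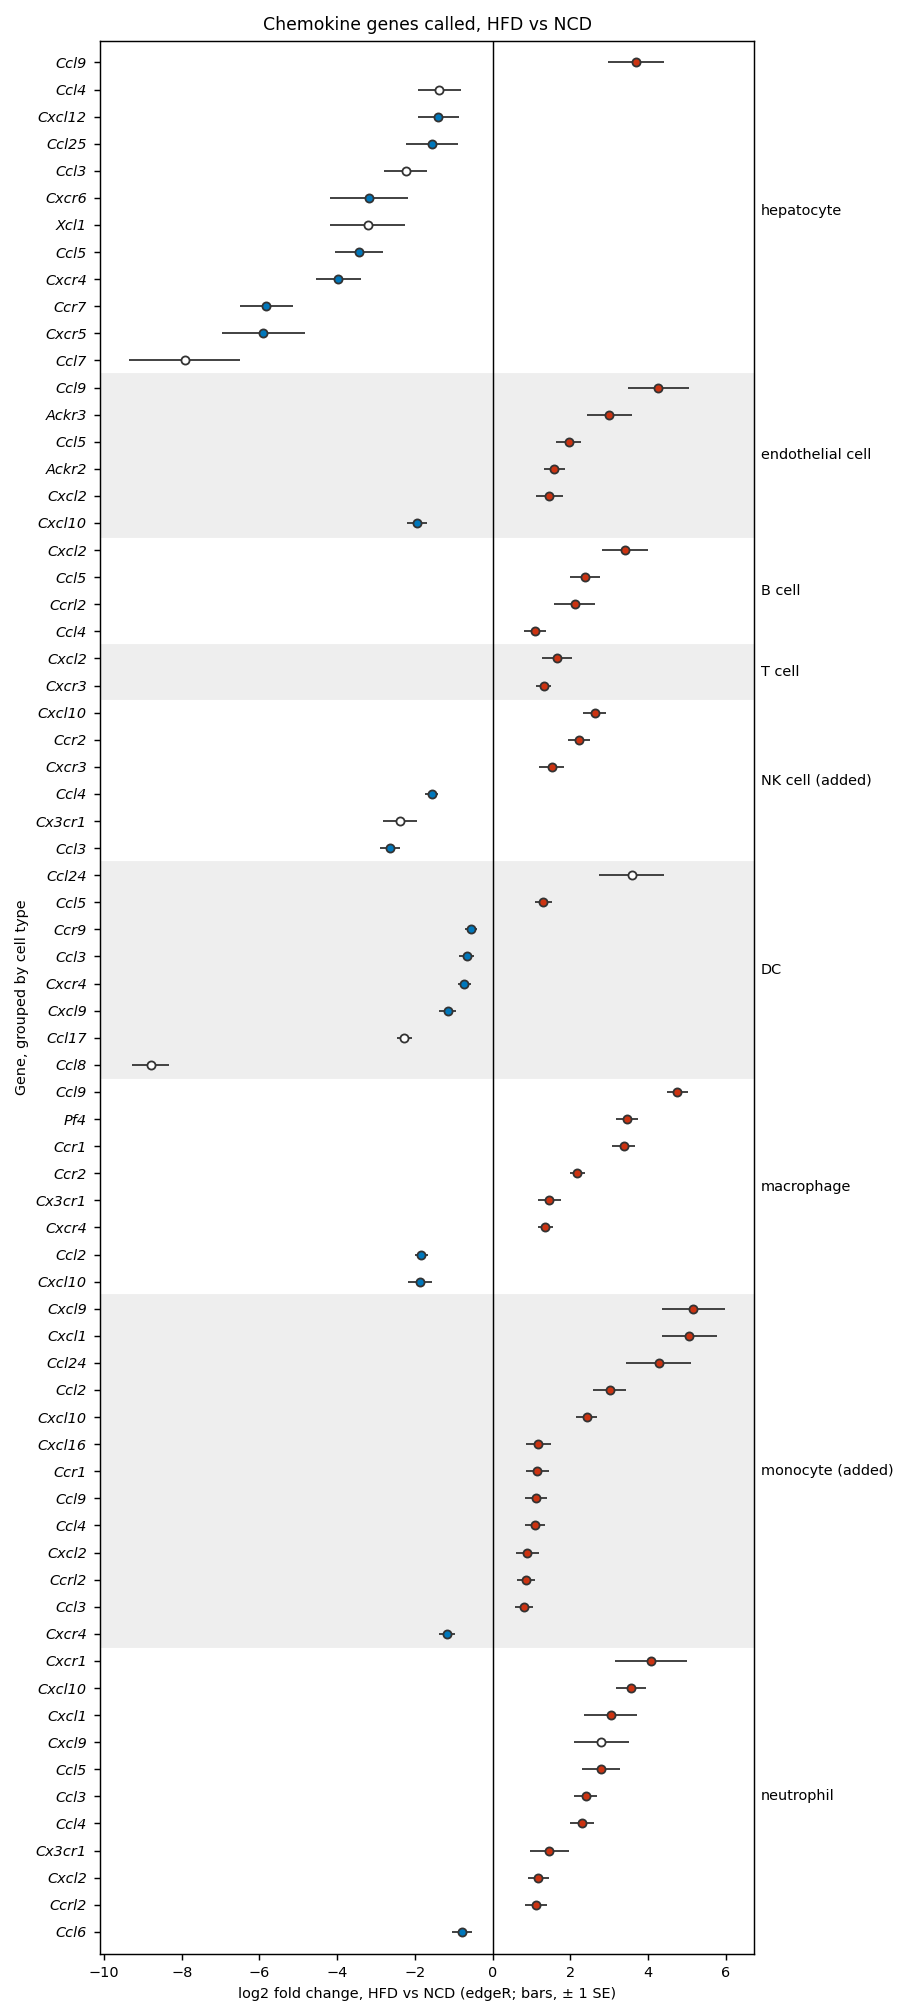
Fitted log2 fold change (HFD over NCD, bars 1 SE) of every member called in a cell type, red for higher and blue for lower in HFD, with open symbols for values carried by few cells. NK cells and monocytes, marked as added, come from the fit that accepted 30 cells per library, and symbols for genes at 0 in a group depend on the fit's prior count.

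In neutrophils most of the members called were higher in HFD. Their p-values use a variance shared over all genes, with no weight on the gene's own spread between the HFD libraries. Of 22 members tested, 10 were higher and 1 lower, with a background of 13.6% of genes called, and the median log2 fold change of the members was 1.21 against 0.06 for all genes tested. Cxcl10 read 30.7 CPM in NCD, 295 and 397 CPM in HFD and 238 CPM in JQF, with a counting interval of 18.2 to 48.5 CPM in NCD (log2 fold change 3.56 ± 0.40, adjusted p = 5.71e-16). Ccl3 read 671 CPM in NCD, 3572 and 3142 CPM in HFD and 3396 CPM in JQF (log2 fold change 2.39 ± 0.30, adjusted p = 1.36e-12), and Ccl4 read 654 CPM in NCD, 3063 and 3070.3 CPM in HFD and 2777 CPM in JQF (log2 fold change 2.30 ± 0.30, adjusted p = 8.15e-12). For these 3 ligands NCD stood apart below the other 3 libraries. Cxcl2 (log2 fold change 1.18 ± 0.28, adjusted p = 5.06e-04) and Ccrl2 (log2 fold change 1.12 ± 0.28, adjusted p = 0.00121) were also higher in HFD at the levels given above.

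Less abundant members moved the same way in neutrophils. Ccl5 read 15.3 CPM in NCD, 137 and 66.6 CPM in HFD and 80.7 CPM in JQF (log2 fold change 2.79 ± 0.48, adjusted p = 5.80e-07), and its fold change was 2.14 without HFD replicate 1. Cx3cr1 read 18.7 CPM in NCD, 70.6 and 28.1 CPM in HFD and 57.2 CPM in JQF (log2 fold change 1.46 ± 0.50, adjusted p = 0.0322), with 0.62 without HFD replicate 1, so this call leans on that library. Cxcr1 rested on 1 UMI in the NCD neutrophils and read 1.70 CPM in NCD, 30.6 and 26.9 CPM in HFD and 28.9 CPM in JQF (log2 fold change 4.07 ± 0.92, adjusted p = 2.56e-04). Cxcl1 (3 UMIs in NCD, 3.03 ± 0.68, or 2.04 without HFD replicate 2) and Cxcl9 (carried by few cells, 2.80 ± 0.71, or 2.08 without HFD replicate 2) were the other 2 higher members. Ccl6 was the only member lower in HFD, with 1668 CPM in NCD, 763 and 1082 CPM in HFD and 959.6 CPM in JQF (log2 fold change -0.79 ± 0.26, adjusted p = 0.0227).

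The NCD neutrophils were only 102 cells, and all 11 neutrophil calls were lost when genes of low count were kept or when libraries were thinned to equal totals, settings under which no gene of this type passed. Their directions did not change. In barcodes outside called cells, which give the free RNA of each suspension, Ccl5 read 957 CPM in NCD, 3118 and 2413 CPM in HFD and 1287 CPM in JQF, and Cxcl10 read 389 CPM in NCD, 357 and 256 CPM in HFD and 344 CPM in JQF. Free Ccl3 read 119 CPM in NCD, 378 and 404 CPM in HFD and 310 CPM in JQF, and free Ccl4 read 448 CPM in NCD, 1338 and 1237 CPM in HFD and 1109 CPM in JQF. Free RNA of Ccl3, Ccl4, Ccl5 and Cxcl2 was lowest in NCD, as in the neutrophils, and that of Cxcl10 was highest in NCD. Of the 11 neutrophil calls, 7 had free RNA that differed from NCD in both HFD libraries in the direction of the call. The same share over all genes called in a type was not computed, here or for the types below. Such counts are therefore not a result about the members. The summed level of 8 macrophage markers in neutrophils was 220 CPM in NCD, 280 and 359 CPM in HFD and 222 CPM in JQF, with 1 marker at 0 in NCD and none elsewhere. Other marker lists set NCD further apart. The 9 endothelial markers summed to 216 CPM in NCD, 5.62 and 40.3 CPM in HFD and 12.0 CPM in JQF, with 4 at 0 in HFD replicate 1, 2 in JQF and none in the other 2 libraries. The 6 hepatocyte markers summed to 448 CPM in NCD, 88.7 and 189 CPM in HFD and 264 CPM in JQF, with none at 0. The 6 neutrophil markers themselves summed to 33408 CPM in NCD, 52607 and 55406 CPM in HFD and 45495 CPM in JQF, lowest in NCD like the ligands above. The summed dissociation genes in neutrophils were 37061 CPM in NCD, 36255 and 33059 CPM in HFD and 36558 CPM in JQF. The part of these, of free RNA and of other cells in the results was not tested.

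Macrophages had Ccl9, Pf4 and 4 receptors higher in HFD and Ccl2 and Cxcl10 lower. Of 33 members, 6 were higher and 2 lower in HFD (24.2% called, background 15.7%). Ccl9 read 20.1 CPM in NCD, 505 and 497 CPM in HFD and 469 CPM in JQF (log2 fold change 4.74 ± 0.27, adjusted p = 0.012), and Pf4 read 17.9 CPM in NCD, 206 and 157 CPM in HFD and 218 CPM in JQF (log2 fold change 3.45 ± 0.28, adjusted p = 0.0123). Among receptors, Ccr1 read 5.96 CPM in NCD, 52.0 and 61.8 CPM in HFD and 27.6 CPM in JQF (log2 fold change 3.37 ± 0.29, adjusted p = 0.0123), and Ccr2 read 26.5 CPM in NCD, 115 and 107 CPM in HFD and 138 CPM in JQF (log2 fold change 2.18 ± 0.19, adjusted p = 0.0123). Both were lowest in NCD. Cxcr4 read 44.4 CPM in NCD, 102 and 108 CPM in HFD and 142 CPM in JQF (log2 fold change 1.35 ± 0.19, adjusted p = 0.0216), and Cx3cr1 read 41.7 CPM in NCD, 128 and 85.9 CPM in HFD and 141 CPM in JQF (log2 fold change 1.45 ± 0.29, adjusted p = 0.0366).

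Of all macrophage genes tested 7.29% were lower in HFD, and the 2 such members were Ccl2 and Cxcl10. Ccl2 read 287 CPM in NCD, 76.2 and 72.6 CPM in HFD and 152 CPM in JQF (log2 fold change -1.84 ± 0.17, adjusted p = 0.0123), and Cxcl10 read 454 CPM in NCD, 89.7 and 140.2 CPM in HFD and 166 CPM in JQF (log2 fold change -1.87 ± 0.31, adjusted p = 0.0262). NCD was the highest library for both, and JQF lay between NCD and HFD. The macrophages differed in make-up: cells of the Kupffer gate were 92.8% of the NCD, 29.4% and 66.0% of the HFD and 61.2% of the JQF macrophages. That gate asked for several of its listed markers and for none in particular. It therefore does not separate resident from monocyte-derived Kupffer cells. Within Kupffer cells alone, given as levels with no test, Ccl9 read 18.6 CPM in NCD, 441 and 465 CPM in HFD and 442 CPM in JQF, and Ccl2 read 297 CPM in NCD, 81.0 and 71.2 CPM in HFD and 144 CPM in JQF. In the same cells Cxcl10 read 441 CPM in NCD, 49.2 and 117 CPM in HFD and 106 CPM in JQF, and Cxcr4 read 39.2 CPM in NCD, 74.2 and 83.1 CPM in HFD and 105 CPM in JQF. Kupffer Pf4 was 17.4 CPM in NCD, 256 and 160 CPM in HFD and 192 CPM in JQF, Ccr1 1.19 CPM in NCD, 55.7 and 50.8 CPM in HFD and 8.93 CPM in JQF and Cx3cr1 10.7 CPM in NCD, 81 and 41.8 CPM in HFD and 29.4 CPM in JQF. NCD lay on the same side of both HFD libraries as over all macrophages for each of the 8 called members, and the part of make-up in the size of the differences was not tested. Kupffer Ccr2 was 0.791 CPM in NCD, 26.7 and 23.3 CPM in HFD and 11.2 CPM in JQF, below the level over all macrophages in each HFD library.

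Ccl2, Ccl9 and Ccr1 in macrophages were called under every alternative. With clusters in place of the marker gate, Ccr2, Cxcr4, Cx3cr1 and Cxcl10 were no longer called. Pf4 and Cx3cr1 were lost with doublets kept, and Cxcl10 without its top 3 cells. The summed dissociation genes in macrophages were 18622 CPM in NCD, 7058 and 10178 CPM in HFD and 13672 CPM in JQF, like Ccl2 highest in NCD and second in JQF. Free RNA differed from NCD in both HFD libraries in the direction of the call for 7 of the 8 members, all but Ccl2. Endothelial markers in the macrophage gate summed to 896 CPM in NCD against 133 and 252 CPM in HFD and 261 CPM in JQF, with none of 9 at 0 in any library. The 8 monocyte markers there summed to 195 CPM in NCD, 317 and 350 CPM in HFD and 364 CPM in JQF, with 1 at 0 in NCD. They were lowest in NCD and highest in JQF, as Ccr2 and Cx3cr1 were. The part of these in the result was not tested.

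**Figure D4:**
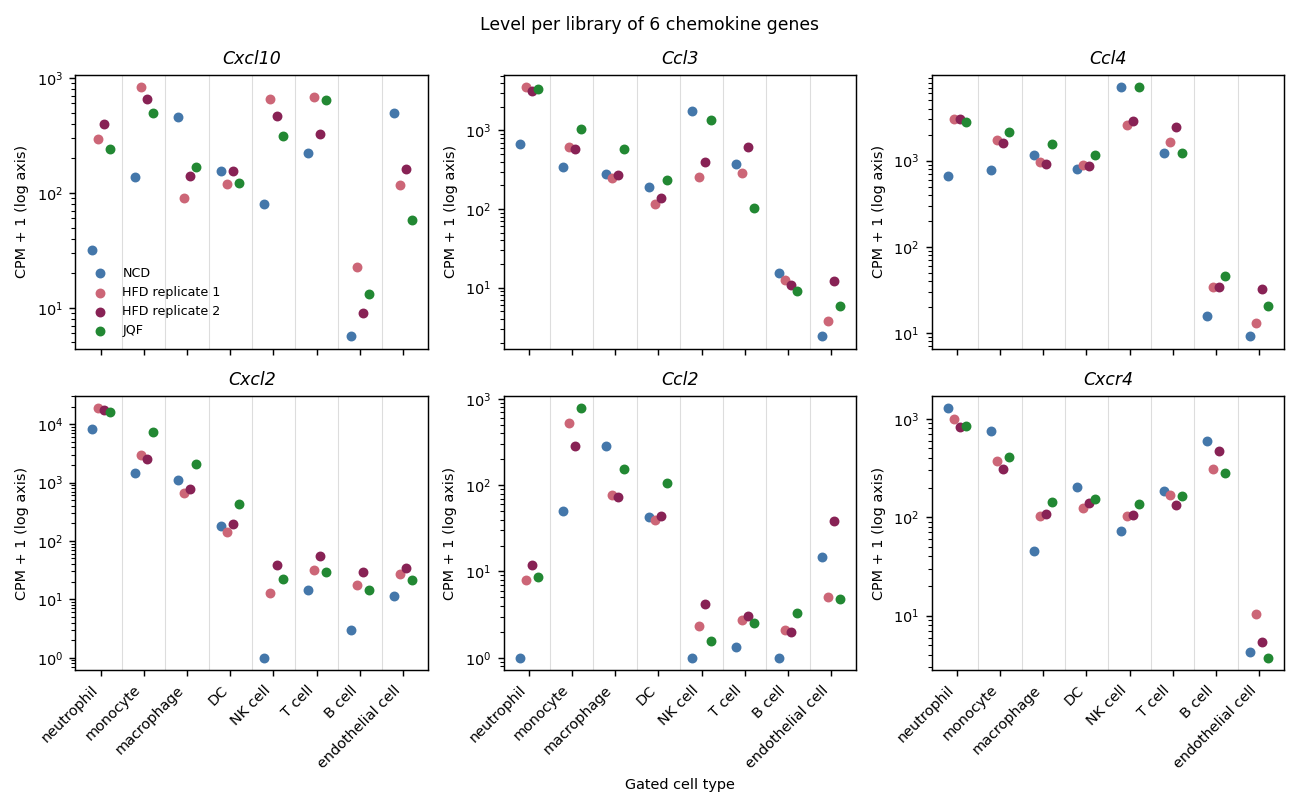
CPM + 1 on a log axis of Cxcl10, Ccl3, Ccl4, Cxcl2, Ccl2 and Cxcr4 in 8 cell types, 1 point per library. Cxcl10 is lowest in NCD in neutrophils, NK cells and monocytes, where the other 3 libraries lie at 238 CPM or more, and highest in NCD in endothelial cells and macrophages.

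In endothelial cells Cxcl10 was lower and the scavenging receptors Ackr2 and Ackr3 were higher in HFD. Of 27 members, 5 were higher and 1 lower in HFD (22.2% called, background 8.12%). Cxcl10 read 498 CPM in NCD, 116 and 160.4 CPM in HFD and 57.3 CPM in JQF (log2 fold change -1.95 ± 0.25, adjusted p = 0.00228), with NCD the highest library and JQF the lowest. Ackr2, which clears inflammatory CC chemokines, read 13.4 CPM in NCD, 42.0 and 45.1 CPM in HFD and 36.7 CPM in JQF (log2 fold change 1.58 ± 0.27, adjusted p = 0.0073), and both calls held under every alternative. Ackr3, a scavenger of Cxcl12, read 1.48 CPM in NCD, 17.6 and 10.9 CPM in HFD and 5.69 CPM in JQF (log2 fold change 3.00 ± 0.57, adjusted p = 0.0115), a call lost without its top 3 cells. Ackr4, which clears Ccl25 among others, did not pass, at 30.9 CPM in NCD, 12.2 and 17.6 CPM in HFD and 23.2 CPM in JQF (log2 fold change -1.08 ± 0.32, adjusted p = 0.0696).

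Ccl5 (9.01 CPM in NCD, 33.8 and 41.0 CPM in HFD and 18.8 CPM in JQF), Ccl9 (0.466 CPM in NCD, 13.5 and 8.12 CPM in HFD and 1.90 CPM in JQF) and Cxcl2 (10.3 CPM in NCD, 25.7 and 33.9 CPM in HFD and 20.4 CPM in JQF) were the other 3 higher members in endothelial cells. Ackr3, Ackr4 and these 3 pairs lay outside the naming rule and were chosen after their values were seen. HFD replicate 1 had only 99 endothelial cells, and its Ccl9 value came from 10 UMIs. In the free RNA, Cxcl2 read 146 CPM in NCD, 924 and 1031 CPM in HFD and 887 CPM in JQF, lowest in NCD as in the endothelial cells, and 5 of the 6 calls, all but Ackr2, had free RNA in the direction of the call. The summed dissociation genes were, like Cxcl10, highest in NCD, with 8490.0 CPM in NCD, 2762 and 2992 CPM in HFD and 2839 CPM in JQF. In this gate the 6 neutrophil markers summed to 7.03 CPM in NCD, 21.7 and 24.4 CPM in HFD and 14.7 CPM in JQF, in the order of Cxcl2 and Ccl5. The 8 monocyte markers read 7.40 CPM in NCD, 52.8 and 23.8 CPM in HFD and 21.3 CPM in JQF, in the order of Ccl9. The 8 macrophage markers (66.8 CPM in NCD, 59.6 and 176 CPM in HFD and 70.8 CPM in JQF) were not lowest in NCD. The part of all these and of free RNA was not tested.

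In DC, 2 members were higher and 6 lower in HFD of 36 tested (22.2%, close to the background of 22.8%). Ccl5 read 202 CPM in NCD, 600.4 and 466 CPM in HFD and 478 CPM in JQF (log2 fold change 1.30 ± 0.22, adjusted p = 0.00912), and in mature DC 1638 CPM in NCD, 3990.0 and 3326 CPM in HFD and 3499.7 CPM in JQF. Cxcl9 went the other way, with 392 CPM in NCD, 164 and 211 CPM in HFD and 280.2 CPM in JQF (log2 fold change -1.15 ± 0.22, adjusted p = 0.0126), and these 2 calls held under every alternative. Cxcr4 (203 CPM in NCD, 122 and 138 CPM in HFD and 152 CPM in JQF, log2 fold change -0.73 ± 0.17, adjusted p = 0.0258) and Ccl3 (189 CPM in NCD, 117 and 137 CPM in HFD and 235 CPM in JQF, log2 fold change -0.67 ± 0.19, adjusted p = 0.0431) were lower by smaller steps, and each was lost under 5 alternatives. The summed dissociation genes in DC were 26398 CPM in NCD, 9565 and 15040 CPM in HFD and 16306 CPM in JQF, in the same order as Cxcl9 and Cxcr4. Endothelial markers in the DC gate summed to 95.7 CPM in NCD, 11.4 and 18.7 CPM in HFD and 12.5 CPM in JQF, with none of 9 at 0 in any library. Free RNA lay in the direction of the call for 3 of the 8 DC calls, Ccl5, Cxcl9 and Ccl24. The part of these in the result was not tested.

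The remaining DC calls rested on few cells or small steps. Ccl17 read 58.5 CPM in NCD, 14.9 and 11.0 CPM in HFD and 111 CPM in JQF (log2 fold change -2.27 ± 0.19, adjusted p = 0.00123), but 3 of 11 positive cells held 83.7% of its NCD UMIs, and without the top 3 cells the fold change was -0.30 and not called. Ccl8 was the extreme case: all 113 UMIs of the NCD value came from 2 cells, at 27.7 CPM in NCD, 0.0578 and 0.0580 CPM in HFD and 0 CPM in JQF. Ccl24, with 1 UMI in NCD, read 0.245 CPM in NCD, 2.60 and 3.83 CPM in HFD and 20.9 CPM in JQF, and 3 cells held 62.2% of its HFD UMIs. Ccr9 read 37.7 CPM in NCD, 27.3 and 27.2 CPM in HFD and 26.4 CPM in JQF (log2 fold change -0.56 ± 0.16, adjusted p = 0.0442). The Ccr9 call was lost under 6 alternatives and the Ccl24 call under 5. Ccl8, Ccl24 and Ccr9 were named here after their values were seen.

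In T cells 2 of 35 members were called (5.71%, background 7.66%), both higher. Cxcr3, which guides effector T cells towards Cxcl9 and Cxcl10, read 38.0 CPM in NCD, 104 and 86.5 CPM in HFD and 95.1 CPM in JQF (log2 fold change 1.31 ± 0.19, adjusted p = 0.0149) and was called under every alternative. Cxcl2 in T cells read 13.5 CPM in NCD, 31.0 and 53.9 CPM in HFD and 28.4 CPM in JQF (log2 fold change 1.65 ± 0.39, adjusted p = 0.0485). In the T cell gate the 9 endothelial markers summed to 115 CPM in NCD, 4.04 and 21.0 CPM in HFD and 8.08 CPM in JQF, with 1 at 0 in HFD replicate 1. There the 6 hepatocyte markers summed to 218 CPM in NCD, 42.9 and 74.3 CPM in HFD and 139 CPM in JQF, with none at 0, and the 8 monocyte markers to 124 CPM in NCD, 376 and 302 CPM in HFD and 315 CPM in JQF, with 2 at 0 in NCD. The 8 macrophage markers summed to 12.5 CPM in NCD, 28.7 and 106 CPM in HFD and 23.4 CPM in JQF, in the library order of Cxcl2, with none at 0. The 7 NK markers summed to 852 CPM in NCD, 355 and 1057 CPM in HFD and 393 CPM in JQF, with 2 at 0 in NCD. Their part was not tested. CD8 cells were 33.4% of the NCD, 51.8% and 61.2% of the HFD and 22.9% of the JQF T cells. Ccl5 in all T cells was highest in HFD but not called, and within CD8 T cells it read 10242 CPM in NCD, 19536 and 19500.4 CPM in HFD and 7645 CPM in JQF.

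In B cells 4 of 21 members were called (background 20.5%), all higher in HFD and all low. Ccl5 read 6.31 CPM in NCD, 29.3 and 39.2 CPM in HFD and 12.6 CPM in JQF (log2 fold change 2.38 ± 0.39, adjusted p = 0.00349), Cxcl2 1.99 CPM in NCD, 16.3 and 28.3 CPM in HFD and 13.4 CPM in JQF (log2 fold change 3.40 ± 0.59, adjusted p = 0.00439, or 2.78 without HFD replicate 2), Ccrl2 2.66 CPM in NCD, 11.9 and 12.4 CPM in HFD and 18.3 CPM in JQF (log2 fold change 2.12 ± 0.53, adjusted p = 0.02) and Ccl4 14.9 CPM in NCD, 33.1 and 33.2 CPM in HFD and 45.1 CPM in JQF (log2 fold change 1.09 ± 0.29, adjusted p = 0.0261). The B cell pairs and Cxcl2 in T cells were chosen after their values were seen. For all 4 B cell calls and both T cell calls, free RNA was likewise lower in NCD than in both HFD libraries (Ccrl2, for example, 51.5 CPM in NCD against 224 and 253 CPM in HFD), and its part was not tested. Marker sums also set NCD apart in the B cell gate. The 6 B cell markers summed to 2287 CPM in NCD, 4143 and 4191 CPM in HFD and 3986 CPM in JQF, and the 6 hepatocyte markers to 238 CPM in NCD, 29.8 and 114 CPM in HFD and 207 CPM in JQF, with none at 0 in either list. The 9 endothelial markers summed to 127 CPM in NCD, 0.542 and 26.8 CPM in HFD and 11.8 CPM in JQF, with 8 at 0 in HFD replicate 1 and 2 in JQF. In contrast, the 6 neutrophil markers summed to 3.65 CPM in NCD, 11.4 and 23.8 CPM in HFD and 8.02 CPM in JQF, with 1 or 2 at 0 in each library. The 8 macrophage markers summed to 31.2 CPM in NCD, 38.5 and 122 CPM in HFD and 32.8 CPM in JQF, with none at 0. Both lists had the library order of Cxcl2 and Ccl5. The summed dissociation genes in B cells were 15701 CPM in NCD, 8699 and 13485 CPM in HFD and 17298 CPM in JQF. The part of all these was not tested. None of the 4 B cell pairs was called when genes of low count were kept.

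Hepatocytes had 12 calls, the most of the 7 types. Of 20 members, 11 were lower and 1 higher in HFD (background 40.8%), from 188 NCD, 57 and 252 HFD and 65 JQF hepatocytes. Leukocyte genes dominated the list: Ccl5 read 458 CPM in NCD, 19.4 and 43.7 CPM in HFD and 777 CPM in JQF (log2 fold change -3.44 ± 0.62, adjusted p = 6.79e-07), Cxcr4 105 CPM in NCD, 6.46 and 4.26 CPM in HFD and 38.1 CPM in JQF (log2 fold change -3.97 ± 0.58, adjusted p = 6.15e-10) and Ccr7 112 CPM in NCD, 1.08 and 1.60 CPM in HFD and 8.96 CPM in JQF (log2 fold change -5.82 ± 0.69, adjusted p = 4.29e-15). T cell, B cell and endothelial markers moved with them. Neutrophil markers (270 CPM in NCD, 333 and 259 CPM in HFD and 410 CPM in JQF) did not set NCD apart from both HFD libraries. Nor did macrophage markers (133 CPM in NCD, 126 and 298 CPM in HFD and 152 CPM in JQF). In the hepatocyte gate the 6 T cell markers summed to 188 CPM in NCD, 6.46 and 14.9 CPM in HFD and 112 CPM in JQF. The 6 B cell markers summed to 107 CPM in NCD, 0 and 1.60 CPM in HFD and 4.48 CPM in JQF, and the 9 endothelial markers to 992 CPM in NCD, 9.69 and 23.4 CPM in HFD and 15.7 CPM in JQF. Dissociation genes in the gate summed to 4805 CPM in NCD, 965 and 1321 CPM in HFD and 4411 CPM in JQF, high in NCD and JQF as Ccl5 was. Free RNA lay in the direction of the call for 4 of the 12 calls. As in neutrophils, the p-values use only the shared variance. The part of these cells and of free RNA in the result was not tested.

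Cxcl12, which hepatocytes and stromal cells are known to express, read 136 CPM in NCD, 51.7 and 30.9 CPM in HFD and 67.2 CPM in JQF (log2 fold change -1.39 ± 0.53, adjusted p = 0.0237). The 8 stellate cell markers in the hepatocyte gate summed to 36.5 CPM in NCD, 1.08 and 2.13 CPM in HFD and 2.24 CPM in JQF, with 1 at 0 in NCD and 6 or 7 in the other libraries. Free Cxcl12 read 43.5 CPM in NCD, 6.46 and 4.62 CPM in HFD and 9.40 CPM in JQF, and the part of both was not tested. Ccl9, the only member higher in HFD hepatocytes, read 9.65 CPM in NCD, 134 and 67.6 CPM in HFD and 26.9 CPM in JQF (log2 fold change 3.69 ± 0.72, adjusted p = 5.29e-06). In the HFD libraries taken singly, 3 cells held 56.5% and 55.1% of its UMIs. Ccl3 (-2.24 ± 0.56) and Ccl4 (-1.37 ± 0.55) were carried by few cells and turned sign under an alternative, Ccl3 to 0.54 without its top 3 cells and Ccl4 to 0.63 with doublets kept. Without HFD replicate 2 they were -3.50 and -2.64, and Ccl5 was -4.19, while Ccl4 was -0.75 without HFD replicate 1. Ccl7 came from 1 NCD cell with 32 UMIs and was at 0 elsewhere, and Xcl1 was also carried by few cells. Cxcr5, Cxcr6 and Ccl25 were the other lower members. Without a replicate, Ccl25 moved to -2.19 or -0.87, Cxcr5 to -4.84 without HFD replicate 1 and Cxcr6 to -2.47 without HFD replicate 2. All 12 calls were lost when libraries were thinned to equal totals.

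NK cells (45 in NCD) and monocytes (48 in NCD) were tested in a fit that accepted 30 cells per library, a setting chosen after the data were seen. In NK cells 3 of 15 members were higher and 3 lower in HFD (40.0% called, background 11.6%). Ccl3 read 1769 CPM in NCD, 256 and 395 CPM in HFD and 1369 CPM in JQF (log2 fold change -2.64 ± 0.25, adjusted p = 5.80e-04), and Ccl4, at the levels above, was lower too (log2 fold change -1.57 ± 0.16, adjusted p = 9.03e-04). Both were high in NCD and JQF and low in both HFD libraries. Cxcl10 read 79.7 CPM in NCD, 653 and 468 CPM in HFD and 313 CPM in JQF (log2 fold change 2.63 ± 0.30, adjusted p = 0.0013), Ccr2 32.7 CPM in NCD, 176 and 174 CPM in HFD and 118 CPM in JQF (log2 fold change 2.23 ± 0.28, adjusted p = 0.00209) and Cxcr3 30.6 CPM in NCD, 107 and 92.8 CPM in HFD and 74.4 CPM in JQF (log2 fold change 1.52 ± 0.31, adjusted p = 0.0188), all lowest in NCD. Cx3cr1 (-2.39 ± 0.44) was carried by few cells. The summed dissociation genes in NK cells, 17063 CPM in NCD, 5148 and 6271 CPM in HFD and 12122 CPM in JQF, had the same order as Ccl3 and Ccl4. Free RNA lay in the direction of the call for 2 of the 6 NK calls, Ccr2 and Cxcr3. The 7 NK markers summed to 2723 CPM in NCD, 4129 and 5351 CPM in HFD and 5335 CPM in JQF, lowest in NCD as Cxcl10, Ccr2 and Cxcr3 were. The 9 endothelial markers in the NK gate summed to 108 CPM in NCD, 5.71 and 15.1 CPM in HFD and 6.71 CPM in JQF, with 1 to 3 at 0 in each library. The 8 macrophage markers summed to 8.17 CPM in NCD, 21.8 and 122 CPM in HFD and 23.5 CPM in JQF, with 5 at 0 in NCD and 1 in HFD replicate 1. The part of these in the results was not tested.

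In monocytes 12 members were higher and 1 lower in HFD of 28 (46.4% called, background 20.4%; median log2 fold change 1.79 against 0.18 for all genes). Cxcl10 (log2 fold change 2.41 ± 0.28, adjusted p = 1.59e-04) and Ccl2 (log2 fold change 3.01 ± 0.42, adjusted p = 5.78e-04) were higher at the levels above. Cxcl9 read 5.09 CPM in NCD, 115 and 250.1 CPM in HFD and 294 CPM in JQF (log2 fold change 5.16 ± 0.81, adjusted p = 0.00109), and Cxcl1 read 1.70 CPM in NCD, 49.6 and 65.6 CPM in HFD and 179 CPM in JQF (log2 fold change 5.06 ± 0.71, adjusted p = 5.76e-04), from 3 UMIs and 1 UMI in NCD. The Cxcl9 fold change was 4.39 without HFD replicate 2. Over all alternatives the fold change ran from 1.71 to 12.33 for Cxcl9, from 0.32 to 10.40 for Cxcl1 and from 0.25 to 3.46 for Cxcl16. Cxcr4 was lower, with 758 CPM in NCD, 369.7 and 308 CPM in HFD and 407 CPM in JQF (log2 fold change -1.18 ± 0.21, adjusted p = 0.00206). Ccl24, Ccl4, Ccl9, Ccr1, Cxcl16, Ccrl2, Ccl3 and Cxcl2 were also higher, with log2 fold changes from 0.80 for Ccl3 to 4.27 for Ccl24 (3.66 without HFD replicate 1).

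Other measures moved with the monocyte calls. Free RNA lay in the direction of the call for 9 of the 13. The 8 monocyte markers summed to 1848 CPM in NCD, 4302 and 3669 CPM in HFD and 4061 CPM in JQF, with none at 0. The 6 hepatocyte markers summed to 263 CPM in NCD, 28.1 and 51.5 CPM in HFD and 105 CPM in JQF, with none at 0, and the 9 endothelial markers to 105 CPM in NCD, 4.34 and 18.9 CPM in HFD and 16.0 CPM in JQF, with 4 at 0 in HFD replicate 1. Dissociation genes summed to 37428 CPM in NCD, 23774 and 22536 CPM in HFD and 24960 CPM in JQF, highest in NCD as Cxcr4 was. Their part was not tested.

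The monocytes also differed in make-up, since the classical ones were 33.3% of the NCD, 63.2% and 58.5% of the HFD and 67.9% of the JQF cells. With clusters in place of the marker gate, Ccl24 was the only 1 of the 13 monocyte calls that remained, whereas the 6 NK calls remained. The 6 NK calls were in turn lost when libraries were thinned to equal totals. Epithelial cells, from 30 cells in NCD, gave no call among 23 members with edgeR, where 3 had an unadjusted p under 0.05 and the background was 0%.

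Some members of over 50 CPM stood at least 2-fold from both HFD libraries and were not called. In macrophages Cxcl13, the B cell attractant, read 110.3 CPM in NCD, 0 and 23.7 CPM in HFD and 80.1 CPM in JQF (log2 fold change -2.91 ± 1.34, adjusted p = 0.187). Its level was listed at 0 in HFD replicate 1 and its fold change was -2.10 without that library. Without HFD replicate 2 it was -10.12, a value that depends on the fit's prior count. Macrophage Cxcl1 (143 CPM in NCD, 24.2 and 50.4 CPM in HFD and 87.8 CPM in JQF, log2 fold change -1.79 ± 0.43, adjusted p = 0.0503), macrophage Cxcl9 (log2 fold change -1.93 ± 0.48, adjusted p = 0.0547) and DC Ccl9 (31.3 CPM in NCD, 66.8 and 147 CPM in HFD and 111 CPM in JQF, log2 fold change 1.69 ± 0.50, adjusted p = 0.0525) did not pass either. Without HFD replicate 2 these 3 were -2.49, -2.68 and 0.93. Macrophage Cxcl1 was called under 5 alternatives, macrophage Cxcl9 under 4, DC Ccl9 under 3 and macrophage Cxcl13 under 2, so the missing calls depend on the processing.

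Between JQF and HFD fewer members differed. Of the 194 pairs, 19 were called (9.79%), 16 higher and 3 lower in JQF (14 and 6 with library totals in place of composition scaling), against 1.1% of all gene-type pairs, and these covered 16 members. Of the 19, 14 were carried by few cells in the higher group and 12 were in hepatocytes. With hepatocytes set aside 7 of 174 pairs were called (4.02%). By type, 0.00776% to 0.548% of all genes were called outside hepatocytes and 7.04% in hepatocytes. The comparison uses the same HFD libraries as the one with NCD. Fold changes below are log2, JQF over HFD.

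**Figure D5:**
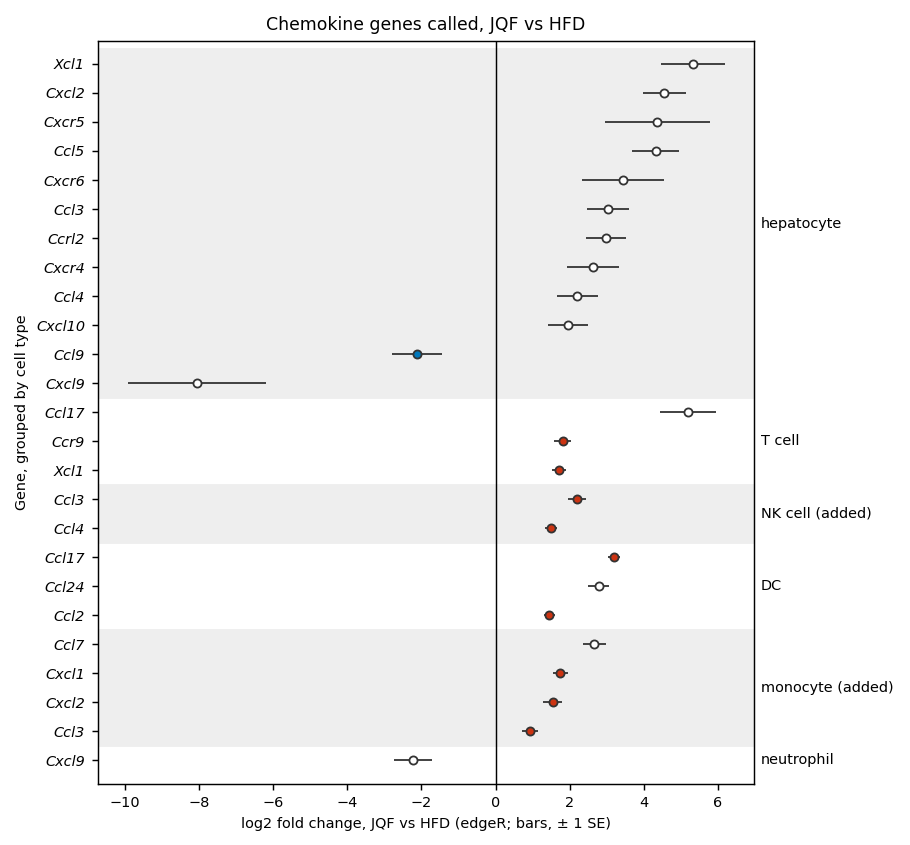
Fitted log2 fold change (JQF over HFD, bars 1 SE) of every called member by cell type. Open symbols mark members carried by few cells in the higher group, with the HFD libraries pooled, and filled symbols mark the rest. Filled symbols stand for Ccl17 and Ccl2 in DC, Xcl1 and Ccr9 in T cells, Ccl9 in hepatocytes and, in the added types, Ccl3 and Ccl4 in NK cells and Cxcl1, Cxcl2 and Ccl3 in monocytes. Taken singly, the HFD libraries had 56.5% and 55.1% of the hepatocyte Ccl9 UMIs in 3 cells.

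In T cells 3 of 35 members were called, all higher in JQF (background 0.548%). Xcl1, which draws Xcr1-bearing DC, read 166 CPM in NCD, 145 and 156 CPM in HFD and 464 CPM in JQF (log2 fold change 1.72 ± 0.19, adjusted p = 0.0222), spread over 1924 positive JQF cells. Ccr9 read 15.1 CPM in NCD, 11.7 and 8.52 CPM in HFD and 32.8 CPM in JQF (log2 fold change 1.81 ± 0.24, adjusted p = 0.0313), in 478 JQF cells. JQF stood above the other 3 libraries for both, and both calls held under every alternative. The summed dissociation genes in T cells were also highest in JQF, with 11346 CPM in NCD, 9242 and 8167 CPM in HFD and 14211 CPM in JQF. Free Xcl1 was highest in JQF too, with 45.5 CPM in NCD, 121 and 41.6 CPM in HFD and 164 CPM in JQF, and free Ccr9 read 9.83 CPM in NCD, 8.61 and 21.4 CPM in HFD and 20.0 CPM in JQF. Their part was not tested. Ccl17 read 0 CPM in NCD, 0.270 and 0.0687 CPM in HFD and 6.05 CPM in JQF (log2 fold change 5.20 ± 0.75, adjusted p = 0.0418), but 3 of 7 positive cells held 97.8% of its JQF UMIs, and leaving out HFD replicate 1 or 2 gave 6.03 or 4.51. Of the T cells, 51.7% in JQF were placed in neither the CD4 nor the CD8 group, against 34.2% in NCD and 29.2% and 23.4% in HFD. These shares hold cells with UMIs of both CD4 and CD8 genes as well as cells with neither.

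In DC, 3 of 36 members were called, all higher in JQF (background 0.371%). Ccl17, which attracts type 2 and regulatory T cells, was higher than in HFD (log2 fold change 3.19 ± 0.17, adjusted p = 0.00525) at the levels given above, from 117 positive JQF cells whose top 3 held 24.7% of the UMIs. Ccl2 read 42.3 CPM in NCD, 38.7 and 42.8 CPM in HFD and 105 CPM in JQF (log2 fold change 1.45 ± 0.14, adjusted p = 0.0222). JQF was the highest library for both. Ccl24 (2.78 ± 0.29) was carried by few cells. Free RNA was higher in JQF than in both HFD libraries for Ccl17 (10.0 and 3.17 CPM in HFD and 13.4 CPM in JQF) and Ccl24 and not for Ccl2. The 6 T cell markers in the DC gate summed to 14.8 and 9.23 CPM in HFD and 54.9 CPM in JQF, with none at 0, and the dissociation genes given above were also higher in JQF than in both HFD libraries. Their part was not tested. Ccl17 was not called with library totals in place of composition scaling or with doublets kept, and Ccl2 was lost under those settings and with clusters. Cxcl2 in DC, over 2-fold higher in JQF, did not pass (log2 fold change 1.41 ± 0.24, adjusted p = 0.095).

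In B cells (21 members, background 0.539%), endothelial cells (27, background 0.0685%) and macrophages (33, background 0.00776%) no member was called by edgeR, and 1, 7 and 11 members had an unadjusted p under 0.05. Macrophage Cxcl2 was over 2-fold higher in JQF than in either HFD library at the levels above (log2 fold change 1.53 ± 0.24, adjusted p = 0.25), and so was macrophage Ccl3, with 282 CPM in NCD, 245 and 272 CPM in HFD and 572 CPM in JQF (log2 fold change 1.15 ± 0.20, adjusted p = 0.294). Endothelial Cxcl10 was lowest in JQF (log2 fold change -1.31 ± 0.29, adjusted p = 0.308). In T cells Ccl5 (log2 fold change -1.43 ± 0.35, adjusted p = 0.181) and Ccl3 (376 CPM in NCD, 289 and 619 CPM in HFD and 101 CPM in JQF, log2 fold change -2.09 ± 0.47, adjusted p = 0.152) were lowest in JQF and did not pass. The T cell Ccl3 value was -1.35 without HFD replicate 2. T cell Ccl5 was called under 3 alternatives, T cell Ccl3, macrophage Cxcl2 and endothelial Cxcl10 under 2 each and macrophage Ccl3 under 1. Macrophage Cxcl13 (log2 fold change 2.57 ± 1.31, adjusted p = 0.611) did not pass either, and was 1.74 without HFD replicate 1 and, set by the fit's prior count, 9.76 without HFD replicate 2.

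Neutrophils gave 1 call of 22 (background 0.521%), Cxcl9, which read 5.11 CPM in NCD, 21.9 and 47.1 CPM in HFD and 7.63 CPM in JQF (log2 fold change -2.23 ± 0.51, adjusted p = 0.00483). It was carried by few cells and was -1.53 without HFD replicate 2. Of the other ligands higher in HFD neutrophils than in NCD, Ccl3, Ccl4 and Cxcl2 read 3396, 2777 and 16062 CPM in JQF and were not called against HFD, and Cxcl10 lay below both HFD libraries without passing (log2 fold change -0.61 ± 0.28, adjusted p = 0.77).

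In hepatocytes 12 of 20 members were called (10 higher, 2 lower, background 7.04%), and 11 of them were carried by few cells in the higher group. The other was Ccl9, which had 56.5% and 55.1% of its UMIs in 3 cells of HFD replicates 1 and 2. Ccl5 (4.31 ± 0.63), Cxcl2 (4.54 ± 0.58), Xcl1 (5.31 ± 0.86), Ccl3 (3.02 ± 0.57), Ccl4 (2.20 ± 0.56), Cxcl10 (1.95 ± 0.55), Ccrl2 (2.97 ± 0.54), Cxcr4 (2.62 ± 0.70), Cxcr5 (4.36 ± 1.42) and Cxcr6 (3.44 ± 1.11) were higher in JQF. For Cxcl2, 3 of 13 positive cells held 91.2% of the 170 JQF UMIs. Cxcl9 was at 0 in JQF, at least 5.09-fold lower at a floor of 3 UMIs, and Ccl9 was lower with a fold change of -2.12 ± 0.68. The T cell and NK cell markers were again higher in the JQF hepatocyte gate, the NK markers at 87.3 CPM in JQF against 1.08 and 3.73 CPM in HFD and 41.8 CPM in NCD, and their part was not tested.

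Leaving out an HFD library moved 9 of these hepatocyte values by over 1.5 times. Without HFD replicate 1, Ccl4 was 1.59, Ccrl2 2.16, Cxcl10 3.07, Cxcl9 -6.92 and Cxcr5 3.35. Without HFD replicate 2, Ccl3 was 4.30, Ccl4 3.48, Ccl5 5.08, Ccrl2 7.53, Cxcl10 1.23, Cxcl2 5.56, Cxcl9 -3.09 and Cxcr6 2.73. Cxcr5, from 5 JQF UMIs, fell to 0 without its top 3 cells. Ccrl2 was at 0 in HFD replicate 1 and Cxcl9 at 0 in JQF, so the Ccrl2 value without HFD replicate 2 and both Cxcl9 values depend on the fit's prior count.

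In the added fit, NK cells had 2 of 15 members higher in JQF (background 1.69%), Ccl3 (log2 fold change 2.20 ± 0.24, adjusted p = 0.00767) and Ccl4 (log2 fold change 1.49 ± 0.16, adjusted p = 0.00767), both also lower in HFD than in NCD and both lost with thinned libraries. The summed dissociation genes in NK cells and monocytes, given above, were also higher in JQF than in both HFD libraries. Of the 14 genes, 9 were called higher in NK cells and none in monocytes, and their part was not tested. Monocytes had 4 of 28 higher (background 1.57%). Cxcl2 (log2 fold change 1.54 ± 0.26, adjusted p = 0.0127), Cxcl1 (log2 fold change 1.75 ± 0.20, adjusted p = 0.00148) and Ccl3, which read 341 CPM in NCD, 623 and 577 CPM in HFD and 1045 CPM in JQF (log2 fold change 0.93 ± 0.20, adjusted p = 0.0457), were spread over many cells, with JQF the highest library for each. Ccl7 read 0 CPM in NCD, 8.49 and 19.9 CPM in HFD and 86.4 CPM in JQF, and 3 of 19 positive cells held 69.7% of its JQF UMIs (fold change 2.67 ± 0.31, or 3.48 without HFD replicate 2). The 4 monocyte calls were lost with clusters in place of the gate. Ccl3 was also lost with DESeq2, with library totals and without its top 3 cells (adjusted p up to 0.493 over its alternatives), and Ccl7 without its top 3 cells. Epithelial cells gave no call among 23 members with edgeR (background 0%), and 3 had an unadjusted p under 0.05.

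The genes around the chemokine system were followed in the same fits over the 7 types. Of 169 pairs of 26 receptor signalling genes, 19 were higher and 17 lower in HFD than in NCD (median log2 fold change 0.22; 7.9% of all pairs were called higher and 9.73% lower), and 8 were higher and 1 lower in JQF than in HFD. Of 143 pairs of 23 inducers and regulators of chemokine genes, 10 were higher and 40 lower in HFD (median -0.40), and 13 were higher and 1 lower in JQF (median 0.24; 0.895% of all pairs were called higher and 0.21% lower). Of 55 pairs of 10 genes that process or tune chemokines, 15 were higher and 3 lower in HFD (median 0.34), and 1 was higher and 1 lower in JQF. The dissociation list, 97 pairs of 14 genes, had 4 higher and 40 lower in HFD (median -0.85) and 11 higher and 1 lower in JQF (median 0.64). Of the pairs higher in JQF, hepatocytes gave 7 of the 8 signalling, 9 of the 13 inducer and 8 of the 11 dissociation calls. Of those lower in HFD, hepatocytes gave 9 of the 17 signalling, 11 of the 40 inducer and 10 of the 40 dissociation calls.

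Among processing genes, neutrophil Mif, a cytokine that also binds Cxcr2 and Cxcr4, read 23.9 CPM in NCD, 137 and 121 CPM in HFD and 92.7 CPM in JQF (log2 fold change 2.50 ± 0.43, HFD over NCD, adjusted p = 5.26e-07). Its receptor gene Cd74 read 92.0 CPM in NCD, 274 and 338 CPM in HFD and 247 CPM in JQF in the same cells (1.80 ± 0.33, adjusted p = 4.22e-06). Between JQF and HFD, Mmp9, a protease that trims several chemokines, read 13.9 CPM in NCD, 15.3 and 9.89 CPM in HFD and 53.3 CPM in JQF in T cells (2.19 ± 0.25, adjusted p = 0.0240). Mmp12 in neutrophils was lower in JQF (-3.75 ± 0.94, adjusted p = 0.0174), at 1.09 CPM against 5.62 and 24.4 CPM. In the other 3 lists the most significant genes were all in the hepatocyte gate, beside the leukocyte markers given above. They were Dock2, Elmo1 and Rgs1 of leukocyte signalling, Ifng, Tnfaip3 and Il1r1 among the inducers, and Nr4a1, Fosb and Ier3 of the dissociation list. Dock2, for example, read 483 CPM in NCD, 18.3 and 16.0 CPM in HFD and 251 CPM in JQF.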

How the data were processed

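RNA of liver cell suspensions was counted with droplet 3′ sequencing (10x Genomics, version 3.1 kit) in 4 libraries of 4 mice. The authors deposited UMI counts per gene and cell, as filtered and raw matrices. The submitters' notes name Cell Ranger 6.0.1, Seurat 4.0.3 and the mm10 build, while the file headers name Cell Ranger 7.0.0 (filtered) and 4 (raw), so the counting version and its use of intronic reads are not settled. Counts of 3′ tags are not scaled by gene length.

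The 46 members and the other gene lists were chosen with earlier results of these data known. The cell filter was 500 or more detected genes and no more than 20% of UMIs from mitochondrial genes, after removal of the 0.8% of barcodes per 1000 called barcodes with the highest Scrublet doublet scores. A gate on marker genes typed 27174 of 29025 cells, and 93.7% of these lay in a cluster of the same name (Leiden, 2000 variable genes, 30 components, 28 clusters). Barcodes of at most 100 UMIs outside called cells stood for free RNA.

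Raw UMIs were summed per library and type. Types with at least 50 cells in every library were fitted with edgeR 4.0.16 (R 4.3.3; TMM, filterByExpr, quasi-likelihood, group as the only term, all 4 libraries, Benjamini-Hochberg over all genes of a type at 0.05). NCD and JQF had 1 library each, so the HFD pair gives the 1 residual degree of freedom, which edgeR moderates with a variance shared over genes (prior degrees of freedom 4.15 to 9.44, or infinite in neutrophils and hepatocytes, where p-values rest on the shared variance alone). The SE is the fold change over the root of its F. Counting intervals are exact Poisson at 95% and, like the floor of 3 UMIs, cover counting error only. On simulated data fold sizes were recovered, most 4-fold changes were called in macrophages and T cells and most 2-fold changes were not, and in DC most draws recovered no change, so a missing call does not show that a gene did not differ.

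Named with values were called members (the 30 of highest mean CPM where more were called), the top 3 ligands and receptors of a type, and uncalled members at a mean of 50 CPM or more that differed at least 2-fold from both HFD libraries. Other called pairs were given values after these were seen. Promoters were matched by symbol to RefSeq for 37 members. Alternatives were DESeq2 1.42.0, library totals, no filter, doublets kept, a looser cell filter (200 genes, 25%), clusters, thinning, removal of the top 3 cells, left-out HFD libraries and, added after the data were seen, 30 cells per library and leaving out hepatocytes. Raw depth was 74414346 to 118623905 UMIs per library.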

Additional observations from a re-analysis of the deposited data

Results flagged for a closer look

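Several members were called with opposite signs in different cell types between HFD and NCD (log2 fold change, edgeR). The difference between types was not itself tested, and NCD is 1 library. Cxcl10 was higher in HFD neutrophils (3.56) and lower in endothelial cells (-1.95) and macrophages (-1.87). Ccl3 was higher in neutrophils (2.39) and lower in DC (-0.67). Cxcr4 was higher in macrophages (1.35) and lower in DC (-0.73) and in the hepatocyte gate (-3.97). Ccl5 was higher in neutrophils (2.79), B cells (2.38), endothelial cells (1.95) and DC (1.30) and lower in the hepatocyte gate (-3.44).

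Ppbp stood out in barcodes outside the called cells of HFD replicate 2, at 5.94 CPM, against 0 CPM in NCD.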

How the results depend on the processing

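No paired analysis was possible because the groups compared share fewer than 2 replicate numbers. Without an HFD replicate no residual degree of freedom was left, so those settings give fold changes only. Of 106 member-type differences given values, 104 reversed under no alternative, although Cxcr5 in hepatocytes (JQF over HFD) became 0 without its top 3 cells; in hepatocytes Ccl3 turned to 0.54 without its top 3 cells and Ccl4 to 0.63 with doublets kept (HFD over NCD). Of 95 called pairs, 15 were called under every alternative. The 51 member calls between HFD and NCD ranged from 35 with DESeq2 to 64 with doublets kept, or 70 with 30 cells per library, and 29 of the 51 were shared with DESeq2, 29 with clusters, 24 with thinned libraries and 31 with no filter. The 19 calls between JQF and HFD became 12 with DESeq2, 37 with no filter, 12 with thinned libraries, 8 without the top 3 cells and 7 without hepatocytes, and 8, 17, 6 and 6 of the 19 were shared under the first 4; with clusters 5 of the 19 were. No hepatocyte pair had a fit with clusters, so at most the 39 and 7 calls outside hepatocytes could be shared there. The cause of the other changes was not tested. Library totals moved the median of all genes (HFD over NCD) by -0.37 in hepatocytes, 0.13 in endothelial cells and -0.11 in macrophages, and (JQF over HFD) by 0.25 in hepatocytes and -0.11 in B cells. Low counts limit Cxcr1, Cxcl1 and Cxcl9 in NCD neutrophils and monocytes, at 1 to 3 UMIs each where called.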
